A study of Mus musculus with 18 samples.

Results

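The erbB2-positive cells sorted from a 1:50 co-culture of the Comma-D and MMTV-neu lines were compared with the unmixed Comma-D line. The comparison uses 6 of the 18 arrays of the series, 3 in each group, chosen by sample title, and the 19938 mouse genes that had a probe set to themselves. Comma-D is an epithelial line derived from the normal mouse mammary gland, labelled normal, erbB2-negative and without phosphorylated erbB2. MMTV-neu is a line from mouse mammary tumours in which the mouse mammary tumour virus promoter drives the neu oncogene, a form of erbB2, and is labelled cancer with both erbB2 and its phosphorylated form present. Cells of the co-culture that bound an antibody to erbB2 were held on a magnetic column as the positive fraction, and the rest formed the depleted fraction. The labels call the positive fraction redirected, with erbB2 present and the phosphorylated form absent, and the depleted fraction normal. Comma-D and the co-culture shared a medium of DMEM/F12 with 2% serum, to which EGF at 5 ng/ml and insulin at 10 ug/ml had been added, whereas MMTV-neu grew in DMEM with 10% serum. The titles do not say which line made up the 50 parts of the mixture, and the labels do not say whether unmixed Comma-D also passed over the beads. Nothing in the labels says that the 3 samples of a group were separate cultures, so p-values measure the spread between samples of a group, which may be technical. That spread was estimated from all 6 groups of the series together, not from the compared groups alone.

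The mammary gland has an inner layer of luminal cells, which express Krt8 and Krt18 and can make milk, and an outer layer of basal or myoepithelial cells, which express Krt5 and Krt14 and rest on the basement membrane. ErbB2 is a receptor tyrosine kinase with no ligand of its own that signals through the other ERBB receptors and the ERK cascade. ERK activity switches on immediate early genes such as Fos and feedback inhibitors such as Dusp6 and Spry1.

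The array median was 6.35 log2 units in Comma-D and 6.44 in the fraction. The epithelial genes Cdh1, which encodes E-cadherin, and Krt14 lay well above it in both. Cdh1 averaged 9.41 and 9.44, and Krt14 averaged 10.98 and 11.49. Not all epithelial genes did so: 4 of 6 luminal keratins lay above it in each group. Of 13 basal and squamous keratins 7 did in Comma-D and 8 in the fraction. The mesenchymal gene Vim, given below, averaged higher than Cdh1 and Krt14 in both groups. Erbb2 itself, the gene named in the sort, read 8.14, 8.32 and 8.12 in Comma-D and 8.14, 8.16 and 8.36 in the fraction, a difference of 0.02 (95% interval -0.18 to 0.23). The arrays of the groups overlapped. MMTV-neu read 8.14, 7.89 and 8.14, so on the deposited scale this probe set did not set the erbB2-driven line above Comma-D either. Whether the probe set detects transcripts of the neu oncogene in that line was not tested. The spread of genes over an array was narrower in the fraction (SD 1.64, 1.82 and 1.77) than in Comma-D (1.85 to 1.88), and was 1.26 to 1.28 in MMTV-neu. Abundant reference transcripts were low in MMTV-neu: Actb, the beta-actin gene, averaged 9.36 there against 13.30 in Comma-D, and B2m, of MHC class I, 5.76 against 12.07. The 11 reference genes had a median difference between these lines of -2.02, so placements against MMTV-neu depend on the scaling. Replicate 1 of the fraction had the narrowest spread of its group. Abundant genes sat lower in the fraction: the median difference was -0.26 in the 4985 genes highest in Comma-D and 0.15 in the second lowest 4984. The part of this gradient in the results below was not tested. In RNA from a cell mixture, fewer cells of a type and less RNA per cell cannot be told apart, and Comma-D RNA inside the fraction and altered MMTV-neu cells cannot be told apart either.

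Relative to Comma-D, limma called 233 genes higher (1.17% of those tested) and 906 lower (4.54%), together 1139 or 5.71%, at a Benjamini-Hochberg adjusted p under 0.05. At least 2-fold differences were called for 20 higher and 177 lower genes. At an unadjusted p under 0.05 there were 4388 of the 19938 genes, 1710 higher and 2678 lower. Counts of list members at an unadjusted p below stand beside these. The arrays of the groups did not overlap at any of the 1139 called genes, beside 37.5% of all genes. Of the called genes, 134 higher and 312 lower ones lay among the 4984 genes of second highest Comma-D level, and 26 higher and 520 lower ones among the 4985 highest. Leaving out replicate 1 of the fraction left 500 calls, 104 of them higher. With each array centred on 11 reference genes, 203 genes were called and the share of higher calls went from 20.5% to 40.4%, and the median of all genes moved up by 0.236. Quantile normalization gave 380 calls, 26.3% of them higher. A gene call is described below as held in every setting when none of the up to 17 alternatives run for that gene ended it. Counts of called list members below stand beside the all-gene shares of 5.71% called, 1.17% higher and 4.54% lower.

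**Figure D1:**
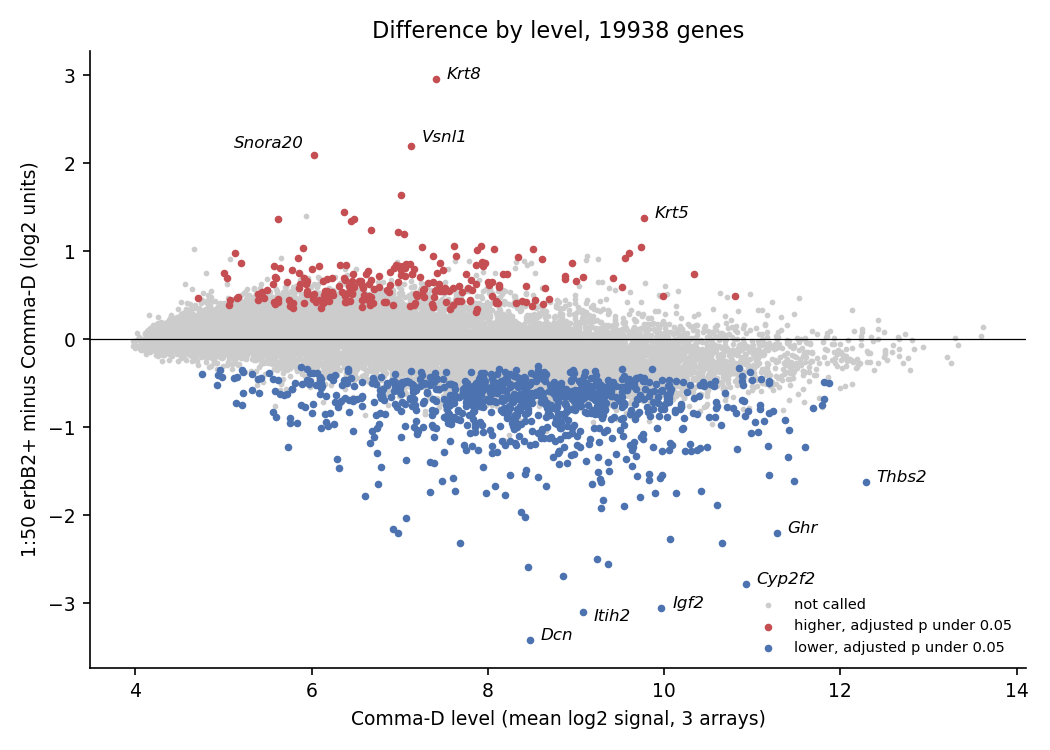
Difference of 19938 genes between the 1:50 erbB2-positive fraction and Comma-D (vertical axis, log2 units) against their mean level in Comma-D (horizontal axis, log2 signal, 3 arrays). Red points are the 233 genes called higher, blue points the 906 called lower and grey points the rest. Blue points gather at middle and high levels and reach -3.42 at Dcn, while Krt8, at 2.96, stands above every other red point.

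Among the 6 luminal keratins 2 rose and 1 fell, with a list median of 0.07 beside 0.008 over all genes. Krt8, the type II keratin of simple epithelium, read 7.38, 7.70 and 7.15 in Comma-D and 10.76, 10.16 and 10.19 in the fraction. All 3 arrays of the fraction lay far above the 3 of Comma-D and below the MMTV-neu arrays, which read 11.22, 11.33 and 11.46. Krt8 rose by 2.96 (SE 0.19), or 7.77-fold (adjusted p = 5.05e-08), in every setting. Krt18, the type I keratin that pairs with Krt8 in filaments, moved the other way. It read 9.31, 9.37 and 9.35 in Comma-D and 8.68, 8.86 and 8.68 in the fraction, and fell by 0.60 (SE 0.10, adjusted p = 0.00171), a call lost with centring and with quantile normalization. Krt19, another luminal keratin, rose by 0.54 (SE 0.14) from 5.43 to 5.97, under the array median in both groups, a call that 7 settings ended. Krt7 was not called, at -0.11 (95% interval -0.39 to 0.16). The luminal transcription factor Foxa1 read 7.20, 7.70 and 7.23 in Comma-D and 8.77, 8.12 and 8.07 in the fraction. Its groups did not overlap, and it rose by 0.94 (SE 0.21, adjusted p = 0.0154), but 4 settings ended the call, among them leaving out replicate 1 of the fraction, the highest of the 3. Foxa1 was the only gene called of the 21 luminal and epithelial transcription factors, whose median was 0.021 and turned to -0.004 after quantile normalization.

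**Figure D2:**
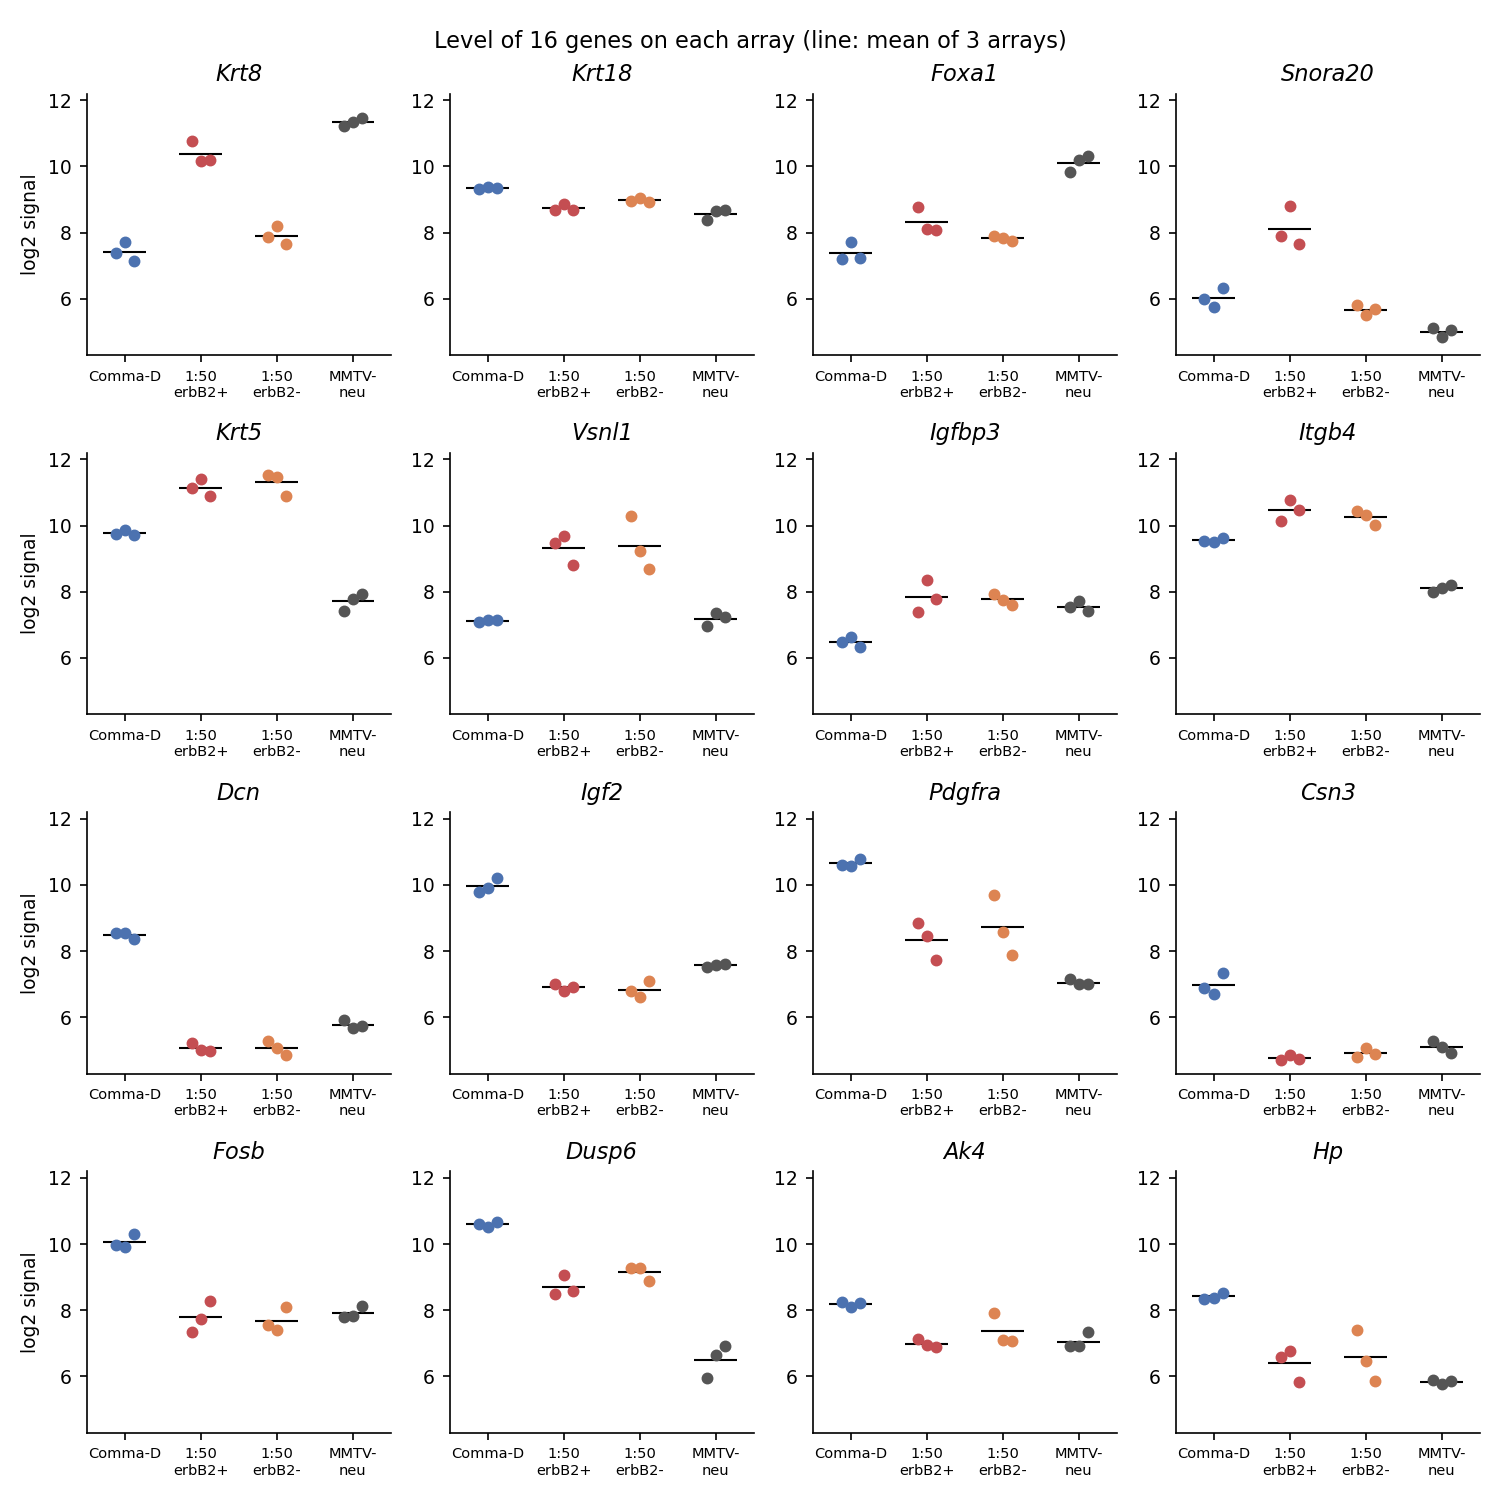
Level of 16 genes (log2 signal) on each of the 3 arrays of Comma-D, the 1:50 erbB2-positive fraction, the 1:50 erbB2-negative fraction and MMTV-neu, with a line at the mean. Krt8 and Snora20 stand apart in the erbB2-positive fraction from the erbB2-negative one, whereas Dcn, Igf2, Csn3, Krt5 and Vsnl1 lie close together in both fractions and away from Comma-D.

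Some basal genes were higher as well. Krt5, the type II keratin of basal cells, read 9.73, 9.87 and 9.72 in Comma-D and 11.14, 11.41 and 10.88 in the fraction, with no overlap. It rose by 1.37 (SE 0.26), or 2.59-fold (adjusted p = 0.00414), in every setting, and was the single call among 13 basal and squamous keratins (median 0.158). Its partner Krt14 was higher by 0.52 (95% interval 0.20 to 0.83, adjusted p = 0.0513) and just missed the threshold. In the 22 basal and myoepithelial genes 4 rose and 0 fell (median 0.241), and 2 were lower at an unadjusted p under 0.05. Itgb4, the beta subunit of the integrin of hemidesmosomes, read 9.54, 9.51 and 9.61 in Comma-D and 10.15, 10.78 and 10.48 in the fraction, a rise of 0.92 (SE 0.17). Cdh3, which encodes P-cadherin of basal cells, rose by 0.94 (SE 0.20) and Jag2, a Notch ligand, by 1.05 (SE 0.20). These 3 calls held in every setting. Lama3, a chain of laminin-332, rose by 0.72 (SE 0.18) in a call that 6 settings ended. Col17a1, a collagen of hemidesmosomes, and Lamb3, another laminin-332 chain, missed the threshold at 0.94 (95% interval 0.35 to 1.54) and 0.81 (0.29 to 1.32). Trp63, the p63 factor of basal cells, was not called either, at 0.55 (-0.24 to 1.34). In MMTV-neu, Krt5 averaged 7.71, Krt14 7.43 and Itgb4 8.10, below the fraction on the deposited scale. With centring Krt5 was still called above MMTV-neu (1.502), while Itgb4 was not (0.44, 95% interval -0.01 to 0.89).

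Of 25 cell junction genes 3 rose and 0 fell (median 0.155; 1 was lower at an unadjusted p under 0.05). They were the desmosome genes Dsp (0.86, SE 0.24), Dsc3 (1.36, SE 0.34) and Pkp3 (0.43, SE 0.11), and each call was ended by 5 to 9 settings. Dsc3 averaged 5.61 in Comma-D, under the array median. Of 19 Notch pathway genes 2 rose and 1 fell (median 0.138). Besides Jag2, the ligand Jag1 rose by 0.86 (SE 0.23), with 7.89, 7.96 and 8.04 in Comma-D and 8.48, 9.39 and 8.61 in the fraction, a call that 6 settings ended. Rbpj, which encodes the DNA-binding partner of cleaved Notch, fell by 0.84 (SE 0.12), although a further Rbpj probe set was not called at 0.12.

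The second largest rise was that of Vsnl1, which encodes the neuronal calcium sensor visinin-like 1. It read 7.10, 7.14 and 7.16 in Comma-D, 9.47, 9.70 and 8.80 in the fraction and 6.97, 7.36 and 7.23 in MMTV-neu. The fraction stood above both lines on the deposited scale and after quantile normalization, but with centring it was not called against MMTV-neu (0.20, 95% interval -0.65 to 1.06). Vsnl1 rose by 2.19 (SE 0.38), or 4.57-fold (adjusted p = 0.00233), in every setting.

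Small nucleolar RNA genes, whose products guide the modification or cleavage of ribosomal RNA, gave 4 rises and 1 fall among 34 measured (median -0.065, which turned to 0.171 with centring). Snora20, a box H/ACA RNA, read 6.00, 5.74 and 6.32 in Comma-D and 7.89, 8.81 and 7.64 in the fraction. It averaged 5.00 in MMTV-neu, below the fraction under each scaling, and it rose by 2.10 (SE 0.23), or 4.27-fold (adjusted p = 2.25e-05). Snora73a read 8.26, 7.97 and 7.97 in Comma-D and 8.76, 9.05 and 9.47 in the fraction, a rise of 1.03 (SE 0.15). Its near-identical relative Snora73b rose by 0.91 (SE 0.18), and probes may not separate the pair. Snora44 rose by 1.34 (SE 0.30), and Snord82 fell by 0.49 (SE 0.13). The calls of Snora20, Snora73a and Snora73b held in every setting, while 2 settings ended that of Snora44 and 8 that of Snord82.

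Camta1, a calmodulin-binding transcription activator, and Dock6, a guanine nucleotide exchange factor, were higher in the array of replicate 1 than in the other arrays of the fraction. Camta1 read 9.60, 9.47 and 9.73 in Comma-D and 11.08, 10.30 and 10.35 in the fraction, a rise of 0.98 (SE 0.19). Dock6 read 7.88, 7.96 and 7.92, then 9.67, 8.57 and 8.68, a rise of 1.05 (SE 0.24). Both averaged higher still in MMTV-neu, at 12.31 and 10.57. The Dock6 call was lost without replicate 1 of the fraction, and of its 15 probe sets 4 were called. The Camta1 call was lost when its 4 probe sets were averaged, since the other 3, at 0.54, -0.05 and -0.04, were not called.

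The 5 largest falls were those of Dcn, Itih2, Igf2, Cyp2f2 (-2.78, SE 0.21), a cytochrome P450, and F13a1 (-2.69, SE 0.58), the A chain of coagulation factor XIII. The F13a1 call was lost after quantile normalization. Dcn, which encodes the small proteoglycan decorin that binds collagen fibrils, read 8.55, 8.54 and 8.35 in Comma-D and 5.21, 5.00 and 4.98 in the fraction. The 3 values of the fraction lay under the array median and also under those of MMTV-neu, which averaged 5.78, a difference of -0.71 (95% interval -1.05 to -0.37) that was not called after quantile normalization (-0.13). Dcn fell by 3.42 (SE 0.16), which is 10.7-fold (adjusted p = 8.37e-10), in every setting. Among 15 small leucine-rich proteoglycans 3 fell and 0 rose, with 1 higher at an unadjusted p under 0.05. The others called were Prelp (-1.58, SE 0.42) and Bgn, the biglycan gene (-0.88, SE 0.20), and 7 and 5 settings ended those calls. The list median was -0.022 and turned to 0.214 with centring.

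Of 31 matrix glycoprotein and hyaluronan genes 1 rose and 4 fell (median 0.051). Itih2, a heavy chain that links to hyaluronan, read 9.01, 9.15 and 9.08 in Comma-D and 6.03, 5.98 and 5.92 in the fraction, and fell by 3.101 (SE 0.15), or 8.58-fold. Efemp1, the gene of fibulin-3, fell by 1.72 (SE 0.19), and both calls held in every setting. Thbs2, a matricellular thrombospondin, fell by 1.63 (SE 0.34) and Fbln1, fibulin-1, by 0.92 (SE 0.16), calls that 3 and 2 settings ended. Tnc, tenascin-C, went up instead, from 9.72, 9.69 and 9.81 to 10.50, 11.31 and 10.55, a rise of 1.05 (SE 0.26) that 4 settings ended. Among 21 collagens 2 rose and 0 fell (median 0.223; 3 were lower at an unadjusted p under 0.05). Col7a1, the anchoring fibril collagen beneath epithelia, rose by 0.86 (SE 0.12) in every setting, and Col1a2, a chain of type I collagen, by 0.66 (SE 0.13), which quantile normalization ended.

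Matrix proteases and their inhibitors showed 5 falls and 0 rises in 27 genes, with 3 higher at an unadjusted p under 0.05. The list median was -0.150 and turned to 0.086 with centring. Mmp2, a gelatinase, read 10.09, 10.05 and 10.06 in Comma-D and 8.94, 8.99 and 8.74 in the fraction and fell by 1.18 (SE 0.13). The collagenase gene Mmp13 fell by 1.61 (SE 0.31) and Mmp19 by 1.30 (SE 0.18). Those 3 calls held in every setting, while the call of Timp1, a metalloprotease inhibitor (-0.94, SE 0.26), was ended by 7. Of 19 mesenchymal transition genes 4 fell and 1, Tnc, rose. Of those that fell, 3 encode transcription repressors of epithelial genes, Zeb2 (-0.81, SE 0.12), Zeb1 (-0.68, SE 0.16) and Snai1 (-0.55, SE 0.10), and centring ended each of these calls. The list median of -0.201 turned to 0.035 with centring. Vim, the vimentin gene, averaged 12.93 and 12.85, a difference of -0.09 (95% interval -0.53 to 0.36).

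**Figure D3:**
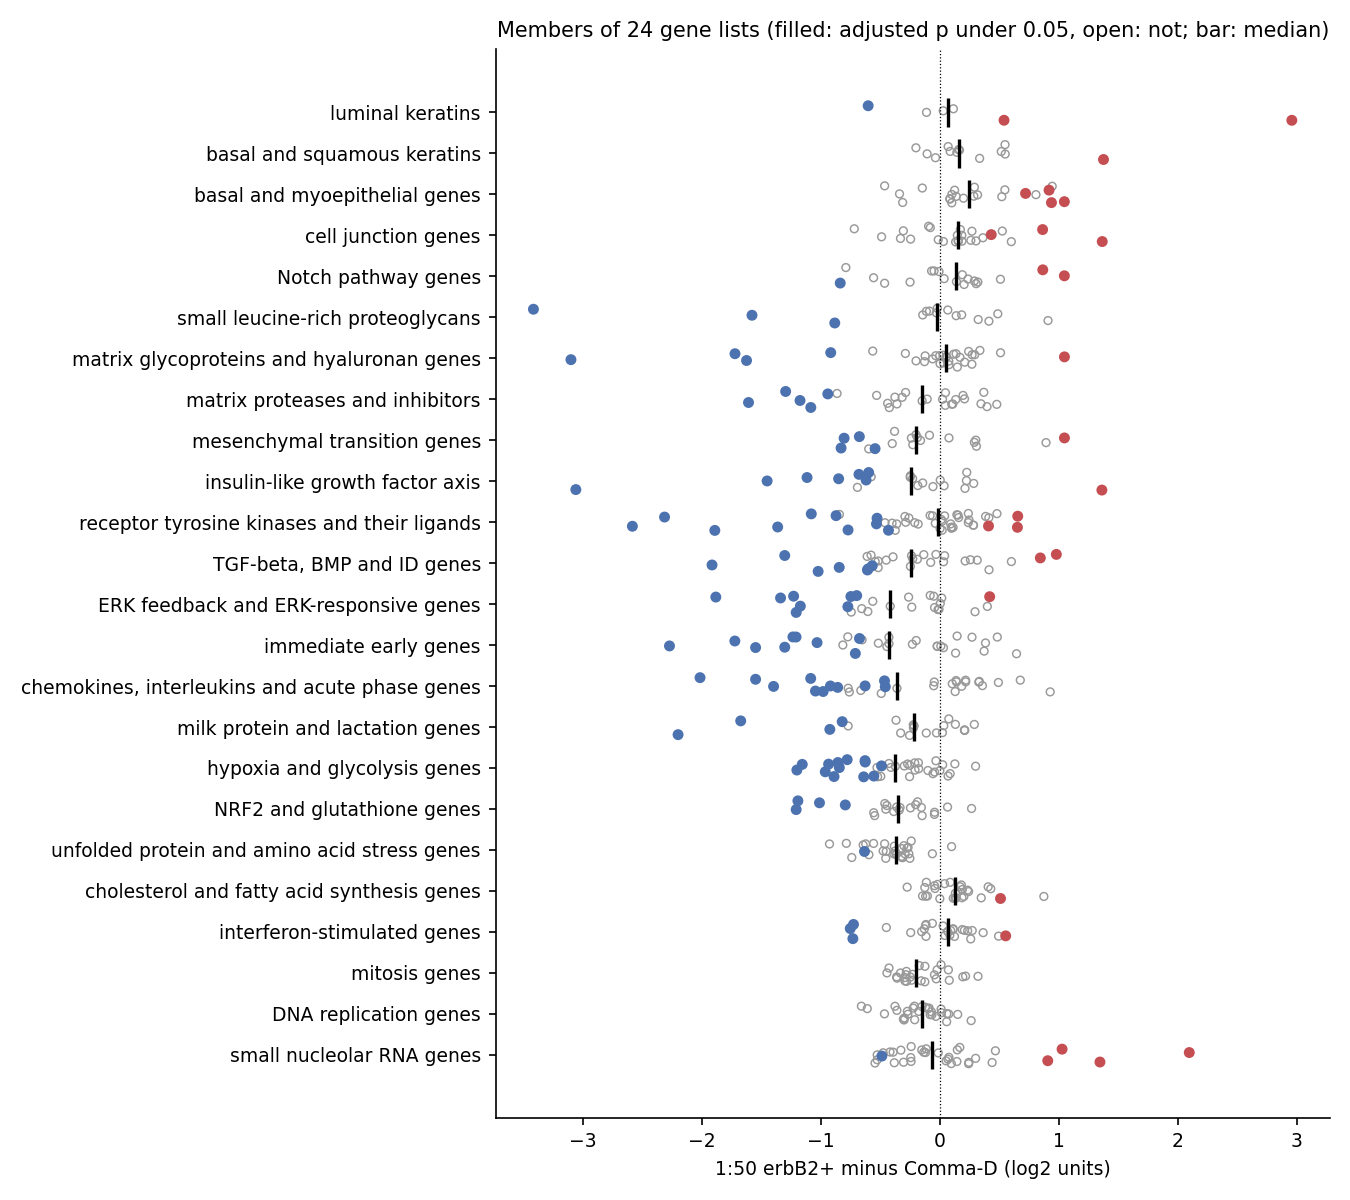
Difference between the 1:50 erbB2-positive fraction and Comma-D (horizontal axis, log2 units) for each measured member of 24 gene lists. Filled red points are members called higher, filled blue points members called lower, open points members not called, and the bar is the list median. Blue points outnumber red ones in the ERK feedback, immediate early, hypoxia and chemokine lists, whereas the basal and junction lists hold red points and no blue one.

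Genes of the insulin-like growth factor axis gave 1 rise and 7 falls among 22, with a median of -0.239 (-0.003 with centring). Igf2, an imprinted ligand of the IGF1 receptor, read 9.79, 9.90 and 10.22 in Comma-D and 6.998, 6.80 and 6.93 in the fraction. It fell by 3.06 (SE 0.14), or 8.34-fold (adjusted p = 6.99e-10), below MMTV-neu at 7.57. The ligand Igf1 read 8.02, 7.92 and 7.90 against 6.41, 6.73 and 6.35, a fall of 1.45 (SE 0.18). Igfbp3, a binding protein that holds both ligands, went up from 6.49, 6.62 and 6.34 to 7.40, 8.36 and 7.78. It rose by 1.36 (SE 0.17), and the calls of Igf2, Igf1 and Igfbp3 held in every setting. Igfbp2, another binding protein, fell by 1.12 (SE 0.22), Insr, the insulin receptor, by 0.62 (SE 0.16) and Pappa, a protease of IGF binding proteins, by 0.60 (SE 0.16), calls that 2, 7 and 9 settings ended. A further Insr probe set at -0.35 was not called. Among 18 genes of the imprinted growth network, to which Igf2 belongs, Mest was the only riser (0.85, SE 0.13, in every setting) and Igf2 the only one that fell.

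The growth hormone receptor and its kinase moved the same way as Igf1. Ghr read 11.34, 11.25 and 11.26 in Comma-D and 9.05, 9.27 and 8.93 in the fraction and fell by 2.20 (SE 0.18), or 4.59-fold. Jak2, the tyrosine kinase bound to that receptor, read 9.37, 9.31 and 9.23 against 7.49, 7.70 and 7.26, a fall of 1.82 (SE 0.14). Socs3, an inhibitor that JAK and STAT signalling induces, fell by 1.55 (SE 0.17), although a further Socs3 probe set at -0.60 was not called (adjusted p = 0.0709).

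Receptor tyrosine kinases and their ligands gave 3 rises and 10 falls in 46 genes (median -0.019, turned to 0.217 with centring). Pdgfra, a receptor for platelet-derived growth factor, read 10.61, 10.58 and 10.77 in Comma-D and 8.83, 8.46 and 7.72 in the fraction. The fraction arrays spread over more than a log2 unit and still lay below all Comma-D arrays, and the fall was 2.31 (SE 0.35, adjusted p = 6.79e-04). Angpt1, a ligand of the TEK receptor, read 8.44, 8.51 and 8.41 against 5.96, 5.97 and 5.67 and fell by 2.58 (SE 0.15). Kitl, the ligand of KIT, fell by 1.89 (SE 0.16) and Hgf, the ligand of MET, by 1.36 (SE 0.12), the latter under the array median in both groups. These 4 calls held in every setting. Ret (0.65, SE 0.14), Pdgfb (0.65, SE 0.18) and Tyro3 (0.41, SE 0.10) were the receptors and ligand that rose, in calls that 4, 9 and 6 settings ended. In the ERBB family itself 2 of 17 genes fell and 0 rose (median 0.024; 2 higher at an unadjusted p under 0.05). Both encode ligands of the EGF receptor: Hbegf read 8.90, 8.77 and 8.71 against 7.42, 7.60 and 7.49 and fell by 1.29 (SE 0.13), in every setting, and Ereg fell by 1.11 (SE 0.22), which 2 settings ended. The receptors were not called, with Egfr at 0.10 (95% interval -0.36 to 0.56) and Erbb3 at -0.08 (-0.44 to 0.28).

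Of 25 feedback inhibitors and targets of ERK 8 fell and 1 rose, and 20 were lower by any amount, with a median of -0.418 (-0.182 with centring and -0.192 after quantile normalization). Dusp6, the cytoplasmic phosphatase of ERK, read 10.60, 10.53 and 10.65 in Comma-D and 8.49, 9.05 and 8.59 in the fraction. It fell by 1.88 (SE 0.19), or 3.69-fold (adjusted p = 1.71e-05), and averaged 6.50 in MMTV-neu. Errfi1, which inhibits EGF receptor and erbB2 kinases, fell by 1.34 (SE 0.13) from an average of 11.40, and Fosl1, an AP-1 factor, by 1.23 (SE 0.17). Those 3 calls held in every setting. Etv5 (-1.21, SE 0.17), an ETS factor, Spry1 (-1.17, SE 0.17) and Dusp1 (-0.75, SE 0.11) fell in calls that 1 setting each ended. The phosphatase gene Dusp8 was the riser (0.42, SE 0.11), in a call that 9 settings ended, and a further Dusp8 probe set at 0.17 was not called.

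Immediate early genes gave 9 falls and 0 rises in 29, with 1 higher at an unadjusted p under 0.05 and a median of -0.429 (-0.193 with centring). Fosb read 9.98, 9.91 and 10.30 in Comma-D and 7.35, 7.75 and 8.27 in the fraction, a fall of 2.27 (SE 0.29), or 4.83-fold. Fos, another Fos-family protein that pairs with Jun proteins, read 10.34, 10.41 and 10.49 against 8.71, 8.71 and 8.64 and fell by 1.72 (SE 0.16). Nr4a1, an orphan nuclear receptor, fell by 1.21 (SE 0.24), and Ccn1, a secreted matricellular protein, by 1.03 (SE 0.16). The calls of Fos and Fosb held in every setting, and 2 settings and 1 setting ended those of Nr4a1 and Ccn1.

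Chemokine, interleukin and acute phase genes gave 11 falls and 0 rises in 31, with 3 higher at an unadjusted p under 0.05 and a median of -0.361 (-0.125 with centring). Cxcl12, the ligand of CXCR4, read 11.22, 11.17 and 11.18 in Comma-D and 9.56, 9.75 and 9.62 in the fraction, a fall of 1.55 (SE 0.17). Hp, which encodes the acute phase protein haptoglobin, read 8.35, 8.38 and 8.52 against 6.59, 6.77 and 5.84 and fell by 2.02 (SE 0.32). Both calls held in every setting. The cytokine Il6 fell by 1.40 (SE 0.30), the alarmin Il33 by 1.05 (SE 0.14) and the monocyte attractant Ccl2 by 1.09 (SE 0.27), calls that 4, 1 and 7 settings ended. Interferon-stimulated genes gave 1 rise and 3 falls in 27 (median 0.065).

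Hypoxia and glycolysis genes gave 13 falls and 0 rises in 37, with 1 higher at an unadjusted p under 0.05 and a median of -0.375. Centring moved that median to -0.139 and kept 1 of the 13 calls. Ak4, a mitochondrial adenylate kinase, read 8.26, 8.11 and 8.21 in Comma-D and 7.13, 6.96 and 6.88 in the fraction and fell by 1.20 (SE 0.18), in every setting, although a further Ak4 probe set at -0.27 was not called. The glycolytic genes Eno2 (-1.16, SE 0.14), Hk2 (-0.86, SE 0.13) and Pfkl (-0.85, SE 0.09) fell in calls that centring ended.

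Of 22 NRF2 and glutathione genes 4 fell and 0 rose, with 0 higher at an unadjusted p under 0.05 and a median of -0.353 (-0.117 with centring). Gstm1, a glutathione transferase, read 10.17, 10.09 and 9.99 against 8.53, 8.96 and 9.14 and fell by 1.21 (SE 0.20), in every setting. Hmox1, the haem oxygenase, fell by 1.19 (SE 0.28) in a call that 6 settings ended. Among 30 unfolded protein and amino acid stress genes 29 were lower by any amount and 1, Chac1, was called (-0.64, SE 0.17), in a call that 8 settings ended. Their median was -0.373 (-0.137 with centring). Of 18 heat shock chaperones Hsph1 fell (-0.53, SE 0.14), in a call that 7 settings ended. Of 29 genes for the synthesis of cholesterol and fatty acids Tm7sf2, a sterol reductase, was the single riser (0.50, SE 0.13), ended by 7 settings, and none fell by limma (0 lower at an unadjusted p under 0.05; median 0.130).

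Milk protein and lactation genes gave 4 falls and 0 rises in 21, with 1 higher at an unadjusted p under 0.05. Their median of -0.217 turned to 0.019 with centring. Csn3, the kappa-casein gene, read 6.88, 6.70 and 7.35 in Comma-D and 4.72, 4.87 and 4.74 in the fraction, a fall of 2.20 (SE 0.14), or 4.60-fold. Ltf, the lactoferrin gene, fell by 1.67 (SE 0.22). Both held in every setting, and both reached averages under the array median in the fraction.

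In the TGF-beta and BMP family 2 of 30 genes rose and 7 fell (median -0.244, -0.008 with centring). The ligands diverged: Bmp4 read 9.39, 9.52 and 9.45 against 8.47, 7.95 and 8.02, a fall of 1.30 (SE 0.16), and Bmp2 read 5.20, 5.19 and 5.02 against 6.39, 6.04 and 5.91, a rise of 0.98 (SE 0.17). Bmp2 stayed under the array median in both groups. The receptors Tgfbr3 (-1.92, SE 0.27) and Tgfbr1 (-0.85, SE 0.13) fell. The calls of Bmp4, Bmp2 and Tgfbr3 held in every setting, and 2 ended that of Tgfbr1. Of 36 Wnt pathway genes 3 fell and 0 rose (median 0.097; 4 higher at an unadjusted p under 0.05), among them the secreted inhibitors Dkk3 (-1.04, SE 0.22) and Wif1 (-0.92, SE 0.13), which 4 settings and 1 setting ended.

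For 6 of the called microRNA genes the mature sequence of a single arm is shown, since the seed sets which transcripts a microRNA binds. Those of the called Mir145a, Mir187 and Mir694 are not shown. Array values come from the hairpin gene and do not tell the arms apart. The mature sequences are those of RefSeq on GRCm38.p6, 5′ to 3′, with the seed, bases 2 to 8, in capitals.
mmu-miR-25-3p: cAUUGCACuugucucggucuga
mmu-miR-106b-5p: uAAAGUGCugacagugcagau
mmu-miR-23a-3p: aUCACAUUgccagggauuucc
mmu-miR-27a-3p: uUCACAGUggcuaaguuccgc
mmu-miR-99b-5p: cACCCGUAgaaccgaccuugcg
mmu-miR-200b-3p: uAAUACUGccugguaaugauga
None of these 6 seeds is shared with another of the 6, and 7 reference mature names carry the seed of miR-106b-5p and 6 that of miR-25-3p.

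Among 300 measured microRNA hairpin genes 6 rose and 3 fell, or 3%, a share below the 5.71% of all genes. Their median was 0.059, and the genes named here were chosen after their values were seen. Mir25, at chr5:138165321-138165404 on the minus strand, read 7.27, 6.998 and 6.77 in Comma-D and 9.50, 8.17 and 8.29 in the fraction. The array of replicate 1 stood above the other arrays of the fraction, and MMTV-neu read 9.97, 10.39 and 10.48. Mir25 rose by 1.64 (SE 0.28), or 3.11-fold (adjusted p = 0.00185), in every setting. Its neighbours on the same strand are Mir93 and Mir106b. Mir106b, at chr5:138165737-138165818, rose by 0.83 (SE 0.22), a call ended by 8 settings. Mir93, at chr5:138165523-138165610, was not called at 0.43 (95% interval 0.01 to 0.85). Mcm7, the replication helicase gene that hosts the cluster, was not called either, at -0.10 (-0.66 to 0.45). Mir99b rose by 0.81 (SE 0.18) and Mir200b, of the family that targets Zeb1 and Zeb2, by 0.43 (SE 0.11) at a level under the array median in both groups, calls that 5 and 9 settings ended. The neighbours Mir23a, at chr8:84208518-84208592, and Mir27a, at chr8:84208672-84208758, both on the plus strand, fell together. Mir23a read 9.13, 9.21 and 9.29 against 7.77, 8.45 and 8.39 (-1.005, SE 0.22), and Mir27a fell by 0.85 (SE 0.23), calls that 4 and 6 settings ended. Mir145a read 8.09, 8.11 and 8.39 against 6.36, 6.57 and 6.34 and fell by 1.77 (SE 0.19), in every setting.

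Of 26 mitosis genes limma called 0, with 0 at an unadjusted p under 0.05 and differences from -0.45 to 0.32. Of 29 DNA replication genes 0 were called and 1 was lower at an unadjusted p under 0.05. Intervals were broad for some of these genes: the cyclin gene Ccna2 differed by -0.45 (95% interval -1.56 to 0.67) and Pcna, the polymerase clamp, by -0.66 (-1.35 to 0.03). A list of 19 genes held p53 targets, inhibitors of cyclin-dependent kinases, and D-type and E-type cyclins. In it 2 fell, the inhibitor gene Cdkn2c (-0.72, SE 0.16) and the cyclin gene Ccnd3 (-0.56, SE 0.12), in calls that 5 and 3 settings ended. At an unadjusted p under 0.05, 1 was higher. The median of that list, -0.093, was 0.143 after centring.

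Marker genes of cell types other than epithelium were also examined. Of 18 fibroblast markers 1 rose, Col1a2, and 3 fell, Pdgfra, Dcn and Fbln1 (median -0.026, 0.21 with centring). The log2 of their summed level ran from 12.67 to 12.73 in Comma-D and from 11.94 to 12.35 in the fraction. Of those markers 10 lay above the array median in Comma-D and 9 in the fraction. Their part in the falls of these and other genes was not tested. Of 19 macrophage and leukocyte markers Cd14 fell (-0.88, SE 0.19) and Cd3e rose (0.60, SE 0.16), calls that 5 and 9 settings ended. Cd3e averaged 6.31 in Comma-D, under the array median. The log2 sum of these markers was 10.25 to 10.30 in Comma-D against 10.13 to 10.21 in the fraction. Of 10 adipocyte markers Lpl fell (-1.64, SE 0.11), in every setting, to a level under the array median. Of 15 endothelial markers 0 were called by limma and 4 were higher at an unadjusted p under 0.05, and 2 lay above the array median in Comma-D and 3 in the fraction.

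The positive fraction was also set against the depleted, erbB2-negative fraction of the same co-culture. In the fit without the replicate number, the difference from Comma-D was called different between the fractions for 2 genes (0.01%), Krt8 and Snora20. Both were higher in the positive fraction, and 2675 genes had an unadjusted p under 0.05, 431 of them higher and 2244 lower. Krt8 read 7.85, 8.20 and 7.65 in the negative fraction, 2.47 below the positive one (95% interval 2.07 to 2.87, adjusted p = 7.09e-06). Snora20 read 5.80, 5.51 and 5.69 there, 2.45 below (1.97 to 2.93, adjusted p = 5.4e-05). Dcn read 5.28, 5.08 and 4.86 in the negative fraction, a difference of -0.01 (-0.35 to 0.33), Igf2 differed by 0.07, Krt5 by -0.16 and Vsnl1 by -0.07, none of them called. Because both fractions are set against the same Comma-D arrays, their own differences from Comma-D share that control.

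Same-numbered arrays of the fractions deviated together, and with the replicate number as a block in those 6 arrays alone 918 genes were called (4.6%), 27 higher (0.135%) and 891 lower (4.47%). Krt8 and Snora20 both stayed called there (limma adjusted p = 0.0478 for each), just under the threshold. Camta1, Angpt1, Ccnd3 and Cdkn2c had the same adjusted p, so such calls would be lost at a slightly stricter threshold. Mir25 (1.24), Camta1 (0.97) and Mir106b (0.72) were called higher in the positive fraction, and Angpt1 (-0.59), Kitl (-0.56), Gstm1 (-0.66), Hmox1 (-0.70) and Trim30a (-0.64) lower. With the same block in all 18 arrays 3 genes were called. Of the 906 genes that fell from Comma-D, 179 were called lower than the negative fraction with the block and 0 higher, and 502 were lower at an unadjusted p under 0.05 without it. Of the 233 that rose, 11 were called higher and 1 lower with the block. These counts share the arrays of the positive fraction with the main comparison and are given as a description. Of 27 interferon-stimulated genes 7 were lower than in the negative fraction with the block (median -0.337), among them Ifit3 (-0.57) and Ifi35 (-0.64). Of 22 NRF2 and glutathione genes 5 were lower (median -0.349). Abundant genes in general sat lower here too, with a median of -0.263 in the 4985 genes highest in Comma-D and -0.119 in the next 4984. Of the 2 lists, 23 and 20 members lay above the Comma-D array median. The part of this gradient was not tested.

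Against MMTV-neu, which grew in another medium, 16621 genes were called (83.4%), 5136 higher in the fraction (25.8%) and 11485 lower (57.6%). The share of higher calls, 30.9%, went to 3.62% with centring, where the all-gene median shifted by -1.93, and to 40.9% after quantile normalization. Of the 233 genes that rose from Comma-D, 160 lay below MMTV-neu, 36 above it and 37 were not called. Of the 906 that fell, 521 lay above MMTV-neu, 111 below it and 274 were not called. These counts share the fraction arrays and are a description. The mean levels of Krt8, Foxa1, Camta1, Dock6 and Mir25 lay between those of the lines under each scaling. After quantile normalization, however, Foxa1 and Dock6 were not called above Comma-D (limma adjusted p = 0.119 and 0.103). Krt5 and Snora20 were above both lines under each scaling, and Vsnl1 and Itgb4 above both except with centring, where neither was called against MMTV-neu. For comparison without shared arrays, the difference between the fractions was set against that between the lines across all 19938 genes, which are not independent replicates. The slope was 0.262 in replicate 1 (Pearson r 0.82), 0.0509 in replicate 2 (r 0.36) and 0.117 in replicate 3 (r 0.63). Relative to the negative fraction, the positive fraction thus leaned toward MMTV-neu in each replicate. It did so most in replicate 1, which also read highest of its group for Krt8, Foxa1, Camta1, Dock6 and Mir25. Its profile stayed much closer to Comma-D: over all genes its arrays correlated at 0.971 to 0.989 with Comma-D and at 0.772 to 0.840 with MMTV-neu. The spread of genes over the arrays moves along with this slope, and its part was not tested.

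**Figure D4:**
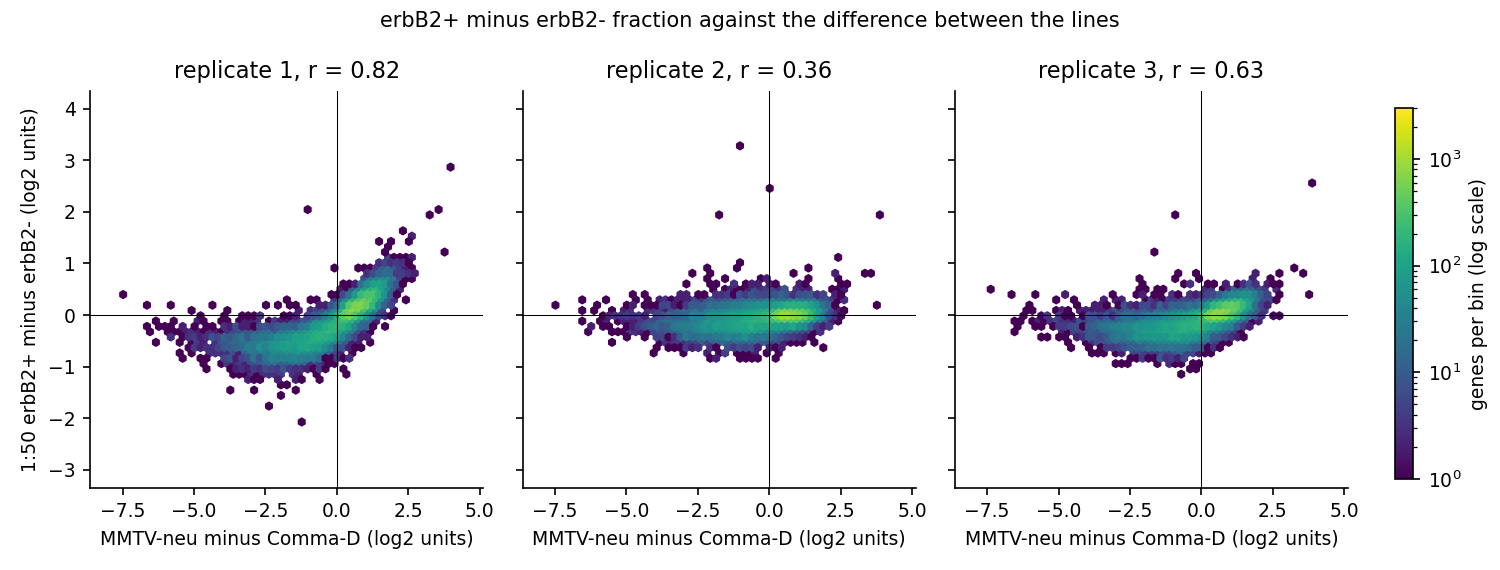
Difference between the 1:50 erbB2-positive and erbB2-negative fractions (vertical axis, log2 units) against the difference between MMTV-neu and Comma-D (horizontal axis, log2 units), in 1 panel per replicate, with shading for the number of genes in each cell of the 19938 plotted. The cloud tilts upward in each panel, with r 0.82, 0.36 and 0.63 in replicates 1, 2 and 3.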

How the data were processed

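RNA of 18 samples in 6 groups of 3 was measured on gene arrays. The deposited table holds log2 values, which the authors made with RMA, R 3.1.2 and limma, per the submitters' processing notes. Medians and spreads differ between the deposited arrays, so they do not share 1 distribution. Arrays give no read depth, and 3 arrays a group limit the precision. All columns belonged to samples of the series (0 others).

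Of 35556 probe sets, 21789 carried 1 gene symbol in the platform annotation, 1621 several and 12146 none, and 21698 of the first matched RefSeq. Each of 19938 genes was taken from its probe set of highest mean over all arrays. limma 3.58.1 in R 4.3.3 fitted the deposited log2 values of all 18 arrays with 1 mean per group (lmFit, eBayes). Differences are two-sided tests on the log2 scale, Benjamini-Hochberg adjusted over all genes and called at 0.05, with 95% intervals. On simulated data for the comparison with Comma-D (200 of 19938 genes changed), 84% of changes of 1 log2 unit and 97% of changes of 2 were recovered, with 13 false calls. The simulated noise was independent between genes, had the same spread in every group and held no gradient with level. These rates therefore check the fit and need not hold for the real arrays.

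Named genes are the 25 largest rises and 25 largest falls with a settled symbol and no overlap between groups, every called member of 37 gene lists and the 8 largest differences in each list. The members and lists were chosen with earlier results of these data known. Mir25, Mir93, Mir106b, Mir99b, Mir145a, Mir23a, Mir27a, Mir200b, Mcm7, Snora33, Rnu3a, Hoxc10 and Actb were added after their values were seen. Deviations of same-numbered arrays from their group means correlated at 0.342, 0.307 and 0.702 between the fractions, so the number pairs them, and at 0.0394, -0.261 and 0.120 between the positive fraction and Comma-D, where it does not. Alternatives covered scaling, filters, probe set choice, array weights, the arrays fitted and leaving out each array.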

Additional observations from a re-analysis of the deposited data

Results flagged for a closer look

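In the fit without the replicate number, the difference from Comma-D was called different between the fractions for 2 genes, by the test of the difference itself. That number pairs the fractions, so the count of 2 does not mean that they differ at these genes alone. With it as a block in their 6 arrays alone, 918 genes were called, 27 higher and 891 lower in the positive fraction. The limma adjusted p-values of Krt8 and Snora20 in that fit lay just under 0.05. With the block in all arrays 3 were called. The values given here come from the fit without the block. Krt8 was 2.47 log2 units higher in the 1:50 erbB2-positive than in the 1:50 erbB2-negative fraction (95% interval 2.07 to 2.87, limma adjusted p = 7.09e-06), and higher in 3 of 3 replicates. Snora20 was 2.45 higher (1.97 to 2.93, limma adjusted p = 5.4e-05), also in 3 of 3 replicates. The MMTV-neu averages were 11.34 for Krt8 and 5.00 for Snora20, so the positive fraction lay between the lines for Krt8 and above both for Snora20.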

How the results depend on the processing

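Against Comma-D the 1139 calls became 414 at an adjusted p under 0.01, 197 at 2-fold or more, 203 with arrays centred on reference genes, 380 after quantile normalization and 2123 with only the compared arrays in the fit. Array weights gave 8970, but the weighting ran from 0.0807 to 419.6 and had not converged. Leaving out 1 array gave 441 to 1485 calls, the fewest without replicate 3 of Comma-D (512 and 596 without its replicates 1 and 2), 500 and 597 without replicates 1 and 3 of the fraction. The replicate number as a block gave 1875 calls in all arrays and 1660 in the compared arrays. It does not pair these groups. Filters on low levels, probe set choice, a trend in the variance and leaving out MMTV-neu kept the count within 1.5 times.

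Against the negative fraction the 2 calls became 1 without the lowest 40% of genes, 7024 with array weights, 0 with only the compared arrays (limma; 2675 genes had an unadjusted p under 0.05 with all arrays) and 918 with the replicate block in the compared arrays. A block in the 12 co-culture arrays, chosen after seeing the data, gave 2, and leaving out 1 array gave 2 to 3. Against MMTV-neu the 16621 calls became 5031 at 2-fold or more, 9102 without the lowest 40% of genes and 8950 without genes under the array median in both groups, and leaving out 1 array gave 15683 to 16598. The causes were not tested.

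Of 170 named genes called against Comma-D, centring kept 82, quantile normalization 93 and leaving out 1 array 99 to 146, and no call changed direction. Signal over background was not measured here, and 32 of the genes called higher and 74 of those called lower lay under the array median in both groups.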

Other observations

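Several genes outside the described lists were among the largest changes. C1qtnf3, a secreted C1q and tumour necrosis factor related protein, read 6.39, 6.30 and 6.43 in Comma-D and 7.49, 8.44 and 7.53 in the 1:50 erbB2-positive fraction, a rise of 1.45 (SE 0.26). Adam12, a membrane metalloprotease, rose by 1.19 (SE 0.30), a call that 5 settings ended, and Xylt1, which starts glycosaminoglycan chains, by 1.06 (SE 0.19). Mark1, a kinase of microtubule-associated proteins, averaged 9.37 in Comma-D and 6.81 in the fraction and fell by 2.55 (SE 0.32), and C1s1, a complement protease, fell by 2.50 (SE 0.40).

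Probe sets without a gene symbol, which enter none of the comparisons above, also gave calls by limma. Of the 12146 such probe sets, 125 were higher and 167 lower than in Comma-D, and 27 were higher and 2 lower than in the erbB2-negative fraction. Of the 1621 probe sets that name several genes, 15 were higher and 68 lower than in Comma-D, and 0 were called against the erbB2-negative fraction.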
